A study of Mus musculus with 50 samples.

Results

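Igha, Igkc and Jchain encode the constant parts of the antibodies that plasma cells secrete. Igha encodes the constant region of the immunoglobulin A (IgA) heavy chain, Igkc that of the kappa light chain, and Jchain the joining chain that links IgA or IgM into polymers. These 3 genes were taken from the 1000 gene targets of a spatial imaging panel, and were selected on their measured counts per cell in these data, on how much of them strongly positive cells held, on their spread to neighbours and on their clustering by field of view. The levels of the 3 genes between genotypes and the cells that carry them are therefore a description, without a test. Tests are reserved for measures that did not choose the genes, that is other targets, protein stains, cell size and the classes of neighbouring cells. The classes of neighbours are not independent of that choice, since spread to neighbours and clustering were part of it.

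A plasma cell makes a single heavy chain class, pairs it with a kappa or a lambda light chain, and fills its cytoplasm with these transcripts. Mature B cells carry IgM and IgD, and switching to IgA or IgG replaces the heavy chain constant region while the light chain stays. In the liver, B cells and plasma cells are found around portal tracts and in lymphoid aggregates, and IgA, the antibody of mucosal surfaces, reaches the liver with the portal blood and leaves it with the bile. Besides the 3 genes the panel held Ighm, Ighd and Ighg1, the constant regions of the IgM, IgD and IgG1 heavy chains, and no other immunoglobulin target, so that lambda light chains and the other IgG classes were not measured.

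Livers were imaged with the CosMx Spatial Molecular Imager, which decodes single transcripts in a tissue section and assigns them to segmented cells. HIRA KO mice were HIRA fl/fl C57BL/6 animals, and control mice were wild-type C57BL/6 animals. At 6 months both were given AAV8-TBG-Cre, a virus whose TBG promoter limits Cre to hepatocytes, were kept for 12 months more and were collected at 18 months, and 5 µm sections of the fixed median lobe lay on 1 slide. The labels give the genotype of each of the 50 fields of view (FOVs) but not its mouse, and runs of consecutive FOVs of 1 genotype form 6 tissue areas of 8 or 9 FOVs each, numbered 1 to 3 in each group. The area was taken as the replicate (n = 3 against 3, with 3 mice per group stated), and the tests compare areas. edgeR, the count test used below, shares its estimate of the spread between areas over the targets. Its p-values therefore do not rest on the spread of a single target alone, also where they are very small. Control areas lay on 1 side of the slide and HIRA KO areas on the other, so that genotype and slide side cannot be told apart, and Hira was no target of the panel.

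Of 52132 segmented cells, 49665 with at least 20 counts and no outsized area were kept, between 6801 and 10171 per area. Gene counts per area ranged from 718991 to 1066387 in control and from 1292256 to 1542205 in HIRA KO, and 2 of the 1000 targets had no count in any kept cell. Levels are given as counts per 1000000 gene counts (CPM), and of the classes of cells named below from their markers the hepatocyte-like one was the largest, with 15821 cells. The 10 negative probes, which match no transcript, serve as the background, and 252 targets had no more counts than the highest of them. Probes differ in efficiency, so that levels of different genes are not compared as amounts of RNA.

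Igha, on chromosome 12 (113254830 to 113260236, minus strand, GENCODE vM21 on GRCm38), was low in every control area and higher in every HIRA KO area. Kept cells of the control areas 1, 2 and 3 held 412, 482 and 362 Igha counts, and those of the HIRA KO areas 1745, 1953 and 1184. The corresponding levels were 456, 452 and 503 CPM in control and 1350, 1266 and 887 CPM in HIRA KO. The groups did not overlap, with means of 471 ± 28.6 and 1168 ± 247 CPM (SD, n = 3 each) and a difference of 1.29 on the log2 scale. This was the highest difference among the 998 targets with a count, whose median difference on this scale was -0.12. In 25 of these 998 targets, or 2.51%, all HIRA KO areas lay above all control areas, and in 167, or 16.7%, below them.

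Igkc (chromosome 6, 70726435 to 70726966, plus strand) had the most counts of the 3 genes, and its areas overlapped. Counts were 5788, 999 and 1130 in control and 9458, 2932 and 6510 in HIRA KO, or 6409, 937 and 1572 CPM against 7319, 1901 and 4879 CPM. Control area 1 stood apart from the other control areas and within the range of HIRA KO. The log2 difference of 0.95 was the third highest among the targets, but with 1 area left out it ranged from 0.36 to 1.75.

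Jchain (chromosome 5, 88519809 to 88527891, minus strand) showed no separation. Counts were 1797, 632 and 401 in control and 1898, 1097 and 1285 in HIRA KO. The levels of 1990, 593 and 558 CPM in control enclosed those of 1469, 711 and 963 CPM in HIRA KO on both sides. Its log2 difference was 0.20, at rank 57 of 998, and ranged from -0.12 to 0.80 with 1 area left out. In all these sums over cells, fewer cells of a type and less RNA per cell cannot be told apart. The counts of single cells are therefore described next.

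**Figure D1:**
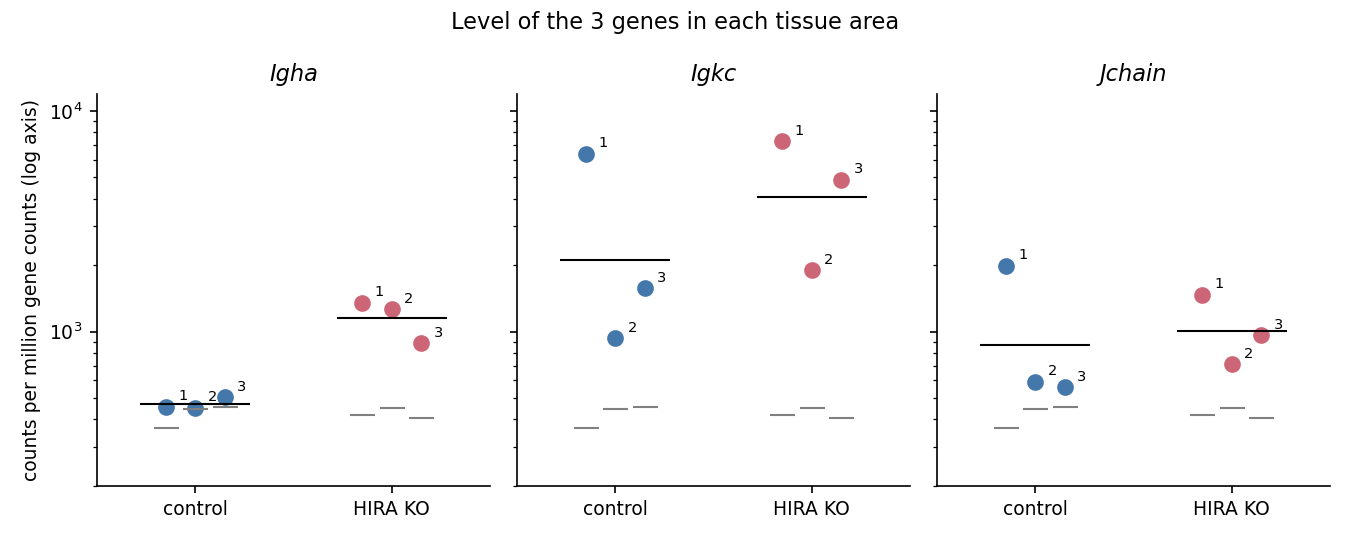
Counts per 1000000 gene counts (log axis) of Igha, Igkc and Jchain in the kept cells of each tissue area. Points are areas, numbered 1 to 3 in each group, black lines are means of the log values and grey dashes are the mean of the negative probes in the same area. The control areas of Igha lie at 456, 452 and 503, below all HIRA KO areas and near the negative probes, whereas the areas of Igkc and Jchain overlap between the groups.

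Few cells carried most of these transcripts. A cell was called strong when its counts of the 3 genes summed to at least 10, and 631 kept cells (1.27%) were, with a median sum of 29 and a highest sum of 289. At the edge of this threshold 40 cells had a sum of 9 and 36 a sum of 10, with a median Igkc count of 8 and 9. Strong cells held 51.1% of the 6138 Igha counts, 66.4% of the 26817 Igkc counts and 53.1% of the 7110 Jchain counts. The highest count in a single cell was 241 for Igha, 165 for Igkc and 48 for Jchain.

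Strong cells numbered 146, 3 and 12 in the control areas and 244, 61 and 165 in the HIRA KO areas, or 0.67 ± 0.98% and 1.74 ± 0.99% of kept cells (SD, n = 3 each), with overlap. The share of Igha counts that lay in them was 14.3%, 0% and 25.1% in control and 66.4%, 62.8% and 50.9% in HIRA KO, without overlap. For Igkc the shares were 78.9%, 9.41% and 30.8% against 75.1%, 51.1% and 64.2%, and for Jchain 71.4%, 3.01% and 12.7% against 66.4%, 36.8% and 58.8%. In both of these genes control area 1 lay among or above the HIRA KO areas. In control area 2, which had 3 strong cells, all 482 Igha counts lay outside strong cells.

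Outside strong cells the genes differed in how far they stood above the background. Igha counts in other cells were 0.83 to 1.11 times the mean negative probe of the same cells over the 6 areas, and Jchain counts at most 1.58 times. Igkc counts were 1.91 to 4.45 times the mean negative probe. Igha and Jchain outside strong cells were thus at or little above what probes without a target gave, and in these cells the Igha levels of the groups overlapped, with 51.3 ± 17.2 and 70.4 ± 10.6 counts per 1000 cells (SD, n = 3 each).

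Strong cells were packed into a few FOVs. FOV 4 in control area 1, FOVs 13 and 14 in HIRA KO area 1 and FOV 45 in HIRA KO area 3 held 461 of the 631 strong cells (73.1%) in 10.5% of the kept cells. They held 61.2% of all Igkc counts, 43.6% of Jchain and 16.4% of Igha. FOV 4 alone had 136 of the 146 strong cells of its area, at 30497 CPM of Igkc against 866 to 2771 CPM in the other FOVs of control area 1.

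Without these 4 FOVs, which were selected after their counts were seen, 10, 3 and 12 strong cells remained in the control areas and 49, 61 and 35 in the HIRA KO areas. Igha was at 407, 452 and 503 CPM in control and 1234, 1266 and 855 CPM in HIRA KO, a log2 difference of 1.28. Igkc was then at 1394, 937 and 1572 CPM against 2414, 1901 and 1976 CPM, without overlap and with a log2 difference of 0.71, where 2.61% of targets had all HIRA KO areas higher. Jchain, at 617, 593 and 558 CPM against 890, 711 and 574 CPM, still overlapped. The levels of Igha in the groups were thus nearly the same with and without the densest FOVs, and the separation of Igkc rested on leaving them out.

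The density of strong cells around each other differed between areas in the same way. Among the 20 nearest kept cells of a strong cell, 70.1%, 3.33% and 4.17% were strong themselves in the control areas, and 34.8%, 10.2% and 46.3% in the HIRA KO areas. Of all kept cells, 1.79%, 0.0441% and 0.171% were strong in the control areas and 2.40%, 0.603% and 2.22% in the HIRA KO areas. The median distance from a strong cell to the next was 56.5, 70.0 and 476 pixels in control and 68.7, 106 and 64.1 pixels in HIRA KO. The size of a pixel is not given in the sources used here.

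Cells with IgA transcripts were sparser and less concentrated in the densest FOVs. At least 5 Igha counts were found in 92 kept cells, 3, 0 and 3 in the control areas and 39, 28 and 19 in the HIRA KO areas. This is 2.66 ± 2.32 and 30.5 ± 6.85 per 10000 cells (SD, n = 3 each). In control area 2 there were 0 in 6801 cells, which allows a share of up to 0.0441%, for counting error only. These 92 cells lay in 24 of the 50 FOVs, 5 control and 19 HIRA KO, with at most 12 in any of them, and held 49.6% of all Igha counts, 59.7% in HIRA KO and 10.7% in control. The 4 densest FOVs held 23 of them, against 461 of the 631 strong cells. Among their 20 nearest cells, 5.00%, 9.82% and 6.32% had at least 5 Igha counts in the HIRA KO areas and none in the control areas 1 and 3. Such cells made up 0.383%, 0.277% and 0.256% of all kept cells of the HIRA KO areas, so that they too lay near each other there. Of them, 69.2%, 71.4% and 68.4% had another within 200 pixels.

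**Figure D2:**
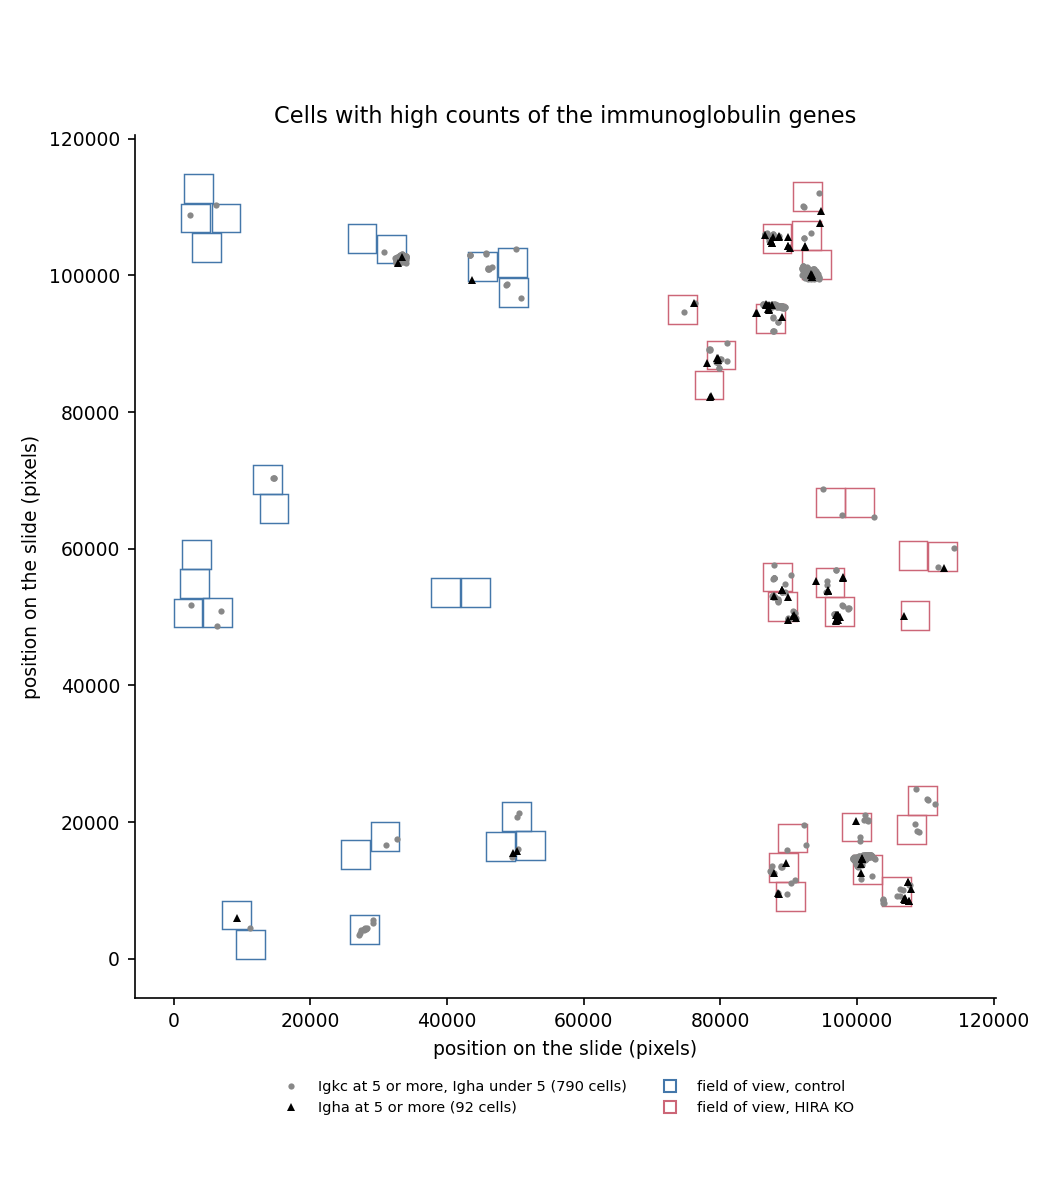
Positions on the slide (pixels) of cells with at least 5 Igha counts (triangles, 92 cells) and of cells with at least 5 Igkc but under 5 Igha counts (dots, 790 cells). Squares are the fields of view, control in blue on the left and HIRA KO in red on the right. Most dots are packed in a few FOVs, and triangles lie in 24 FOVs, 19 of them in HIRA KO.

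Within single cells, Igha went with Igkc rather than with Ighm. Of the 92 cells with at least 5 Igha counts, 72 had at least 5 Igkc counts, 49 at least 5 Jchain counts and 7 at least 5 Ighm counts. The cell with the third highest Igha count, in FOV 33, held 139 Igha, 103 Igkc, 32 Jchain and 1 Ighm counts. A cell of FOV 46 held 96 Igha, 82 Igkc, 15 Jchain and 0 Ighm counts.

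A subset of 13 Igha cells had at most 1 Igkc count, 8 of them in FOV 29, 3 in FOV 28 and 1 each in FOVs 13 and 17, all in HIRA KO. The cell with the highest Igha count, in FOV 29, held 241 Igha and 48 Jchain counts among 537 counts in all, but 0 Igkc counts. The next, also in FOV 29, held 155 Igha, 10 Jchain and 0 Igkc counts. In FOVs 28 and 29 the median distance from a cell of the subset to the next Igha cell was 78.9 and 83.5 pixels. Over all Igha cells of the HIRA KO areas it was 90.1, 96.6 and 109 pixels, so that closeness was not particular to the subset. The subset had 5 to 100 Igha counts per cell in FOV 28 and 9 to 241 in FOV 29. Whether its lower counts came from neighbouring cells was not tested. Whether cells of the subset carried a lambda light chain was not tested either, since no lambda target was on the panel.

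Classifying strong cells by heavy chain, with at least 5 counts taken as carrying a chain, gave Ighm alone in 352 cells (55.8%), Igha alone in 81 and Ighg1 alone in 30. Igha was among the genes that chose the strong cells, and Ighm and Ighg1 were not. Of the 479 strong cells with any heavy chain, 463 (96.7%) had a single class and 16 more than 1. None had at least 5 Ighd counts. The remaining 152 strong cells had none of these chains at 5 counts, and in 86 of them all were at 0 or 1.

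The heavy chains were distributed unevenly over the areas. Cells with Ighm alone numbered 107, 3 and 7 in the control areas and 89, 20 and 126 in the HIRA KO areas. Cells with Igha alone numbered 1, 0 and 3 against 35, 25 and 17, and cells with Ighg1 alone 1, 0 and 0 against 27, 0 and 2. Ighm alone was thus the most frequent class in every area but HIRA KO area 2, where Igha alone was. The FOVs with most strong cells also differed in class. In FOV 4, 103 of 136 strong cells had Ighm alone, and in FOV 45, 111 of 130. In FOV 13, 66 of 88 had Ighm alone and 9 Igha alone. In FOV 14, only 14 of 107 had Ighm alone and 18 had Ighg1 alone, and in 39 all measured chains were at 0 or 1.

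In cells with Igha alone and at least 5 Igkc counts (63 cells in all areas), the ratio of Igha to Igkc counts had a median of 1.14 and a middle range (quartiles) of 0.94 to 1.33. The log2 counts of both genes had a Pearson r of 0.90 over these cells, which share libraries and cell size. In the 352 cells with Ighm alone the ratio of Ighm to Igkc was 0.72 (quartiles 0.54 to 0.92), with r = 0.72. Jchain over Igkc had a median of 0.26 in the former and 0.17 in the latter. These ratios describe counts of different probes and not amounts of RNA.

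**Figure D3:**
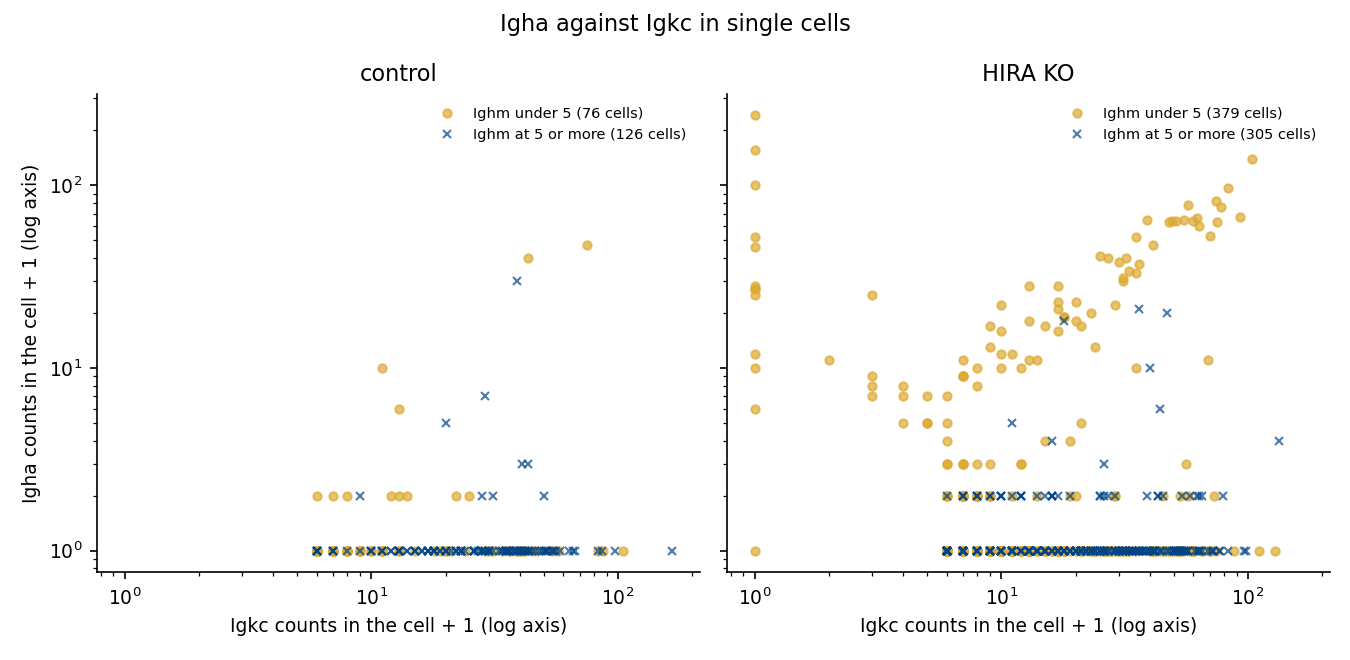
Igha against Igkc counts per cell (each + 1, log axes) in strong cells and other cells with at least 5 counts of either gene, control left and HIRA KO right, with crosses for cells with at least 5 Ighm counts and circles for the others. In HIRA KO a line of circles runs along equal Igha and Igkc counts, a further column of circles has Igha without Igkc, and nearly all crosses lie at 0 or 1 Igha counts.

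Cells were clustered without the 3 genes, and the class that held most of their transcripts was a cluster led by Ighm and Slpi (1412 cells). It was given no cell type name. It contained 79.1% of strong cells, 64.0% of Igkc counts and 44.9% of Jchain counts, but only 20.9% of Igha counts. Of the 92 Igha cells, 26 were in it, 18 were hepatocyte-like, 17 were in a cluster led by the MHC class II genes H2-Aa and H2-Ab1, and 12 were stellate-like. Hepatocyte-like cells as a class held 29.1% of Igha counts, at 113 per 1000 cells against 83.3 for the mean negative probe in the same cells. Segmented cells of a section overlap, so that a cell's class can be set by transcripts of its neighbours, and no doublet caller was run.

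Cells beside strong cells contained the same transcripts. In kept cells that were not strong, Igkc was at 16364 CPM within 100 pixels of a strong cell, 5565 CPM from 100 to 200 pixels, 2237 CPM from 200 to 400, 1025 CPM from 400 to 800 and 959 CPM beyond. Jchain went from 2016 CPM within 100 pixels to 480 CPM beyond 800 pixels, and Igha from 1132 to 431 CPM. The mean negative probe went the other way over the same bins, from 229 to 442 CPM. Jchain and Igha were at 533 and 553 CPM from 100 to 200 pixels and at 429 and 449 CPM from 200 to 400. Most of their fall in CPM thus lay between the nearest bin and the next. The mean negative probe was at 310 and 356 CPM in these later bins, so that both genes still stood above it there. Igkc was still above its far level at 200 to 400 pixels. The nearest bin held 582 cells, of which control area 1 gave 61, control area 3 gave 24 and control area 2 none. In control area 1 Igha was at 471 CPM within 100 pixels, 148 CPM from 100 to 200 pixels and 404 CPM beyond 800 pixels. The nearer bins there held 61 and 95 cells, at 49.2 and 21.1 Igha counts per 1000 cells. The 146 strong cells of this area held only 59 Igha counts. These values therefore cannot show whether Igha fell with distance there.

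Around cells with at least 5 Igha counts, Igha in the other cells was at 570 counts per 1000 cells within 100 pixels (114 cells), 133 from 100 to 200 pixels and 57.1 beyond 800 pixels. The mean negative probe was at 39.5 to 58.8 per 1000 cells in these bins. In hepatocyte-like cells that were not strong, Igha was at 317 per 1000 cells within 100 pixels of a strong cell (41 cells), 154 from 100 to 200 pixels and 82.9 beyond 800, where the mean negative probe was at 82.4. The distance at which Igha fell to the level of the negative probes in hepatocyte-like cells was thus 200 to 400 pixels, where it was at 85.5 against 86.2. Whether transcripts beside strong cells belonged to them and were assigned to the neighbouring outline was not tested.

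**Figure D4:**
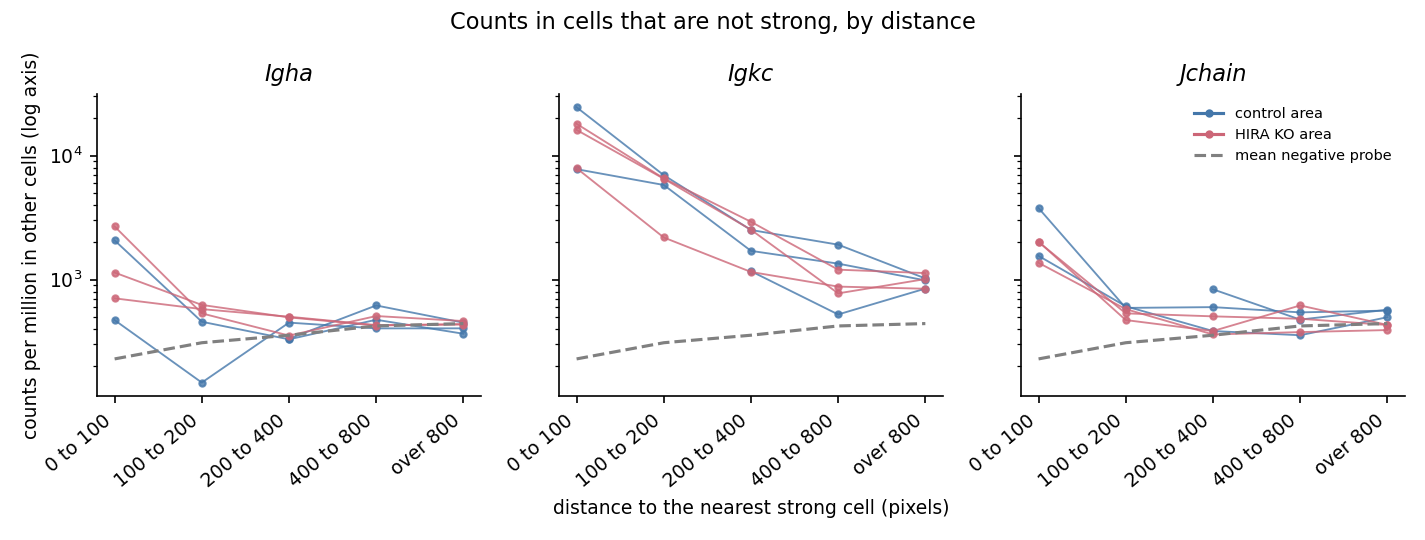
Counts per 1000000 gene counts of Igha, Igkc and Jchain (log axis) in kept cells that are not strong, by distance to the nearest strong cell of the same area in pixels. Lines are tissue areas, control in blue and HIRA KO in red, and the dashed line is the mean negative probe over all areas. Igkc falls from 16364 in the nearest bin to 959 in the farthest over all areas, and pooled over areas Igha falls from 1132 to 431 and Jchain from 2016 to 480.

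A small share of the transcripts lay outside any cell. The mean over the 6 areas was 5.13 ± 1.17% for Igha, 7.11 ± 1.74% for Igkc and 6.28 ± 2.15% for Jchain (SD, n = 6 areas), against 6.84 ± 1.26% for all gene targets and 9.94 ± 1.64% for negative probes. Within areas, Igha was outside cells less often than all targets in 5 of 6 areas, at 5.46%, 2.92% and 4.94% against 7.70%, 6.10% and 8.40% in HIRA KO. Inside cells, 48.2 ± 4.76% of Igha, 42.5 ± 6.03% of Igkc and 44.6 ± 6.60% of Jchain transcripts lay over the nucleus, against 48.1 ± 3.84% for all targets. In strong cells Jchain was at 36.9% over the nucleus and 43.6% over the cytoplasm, and Igha at 46.2% and 34.3%.

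Across the 50 FOVs, each area centred on its mean, the targets most like Igkc in log2 CPM were Jchain (Pearson r = 0.93), Ighm (0.92), Slpi, a secreted protease inhibitor (0.69), Cd52, a lymphocyte surface protein (0.67), and Cd74, the MHC class II invariant chain (0.65). Without the 4 densest FOVs these were 0.84 for Jchain and 0.75 for Ighm, but 0.03 for Slpi. For Jchain they were Igkc (0.93), Ighm (0.87), the chemokine Ccl19 (0.66), Slpi (0.64) and Ly6d (0.64), of which Slpi was at 0.10 without the densest FOVs. For Igha they were Jchain (0.61) and Igkc (0.59), at 0.70 and 0.71 without the densest FOVs. The integrin genes Itgb2 (0.44) and Itgb4 (0.42) and the growth factor receptor gene Pdgfrb (0.42) followed. Itgb4 was close to the background, with 3866 counts in kept cells against 3828 of the highest negative probe. Pdgfrb had 4558 counts and Itgb2 5699. FOVs share a slide and the depth of their area, and these values are given without a test.

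Other targets were then compared between strong cells and all other kept cells of the same area, which asks what else these cells carried. edgeR's quasi-likelihood test with the area as a block and Benjamini-Hochberg adjustment called 127 of 995 targets (12.8%), 62 higher (6.23%) and 65 lower (6.53%) in strong cells. The 3 genes were left out, also of the totals, so that CPM of strong and other cells are per 1000000 counts of the remaining targets. Of the heavy chain genes 2 of 3 were called and both rose. Ighm was at 110579, 204620 and 106246 CPM in strong cells of the control areas and at 48781, 32513 and 77827 CPM in those of HIRA KO. In other cells it was at 1040, 710 and 805 CPM against 1312, 652 and 1484 CPM. Its log2 fold was 6.17 (SE 0.41, edgeR, adjusted p = 9.75e-47). Ighg1 rose by 2.18 (SE 0.35, edgeR, adjusted p = 6.68e-08), and stood far above the rest in HIRA KO area 1, at 21160 CPM against 554 to 3499 CPM in strong cells of the other areas. The latter levels rest on 1 to 74 Ighg1 counts per area, against 940 in HIRA KO area 1. Ighd, of naive B cells, had a log2 fold of 0.48 (edgeR, adjusted p = 0.169).

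Of 7 plasma cell genes, 4 were called and rose. These were Mzb1, a chaperone of IgM assembly, with a log2 fold of 2.50, Xbp1, the transcription factor of the secretory programme, with 1.80, Irf4, a factor of plasma cell differentiation, with 1.20, and Hsp90b1, a chaperone of the endoplasmic reticulum, with 1.16 (edgeR, adjusted p from 3.58e-31 to 0.00197). Mzb1 was at 2418, 0 and 5743 CPM in strong cells of the control areas and at 2116, 2215 and 1954 CPM in those of HIRA KO, against 405 to 565 CPM in other cells. Strong cells of control area 2, where it was at 0, amounted to 3 cells and 416 gene counts, or 303 without the 3 genes. Tnfrsf17, the receptor BCMA of plasma cells, Cd38 and Cd27 had log2 folds of 0.46, 0.10 and 0.08 and were not called. The median of the list was 1.16, against -0.08 over all targets tested.

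Of 14 B cell genes, 8 were called and rose. Among them were Cd79a, a subunit of the B cell receptor (log2 fold 1.51), the MHC class II gene H2-DMb2 (1.25), the cytokine gene Ltb (1.23), Ms4a1, which encodes CD20 (1.12), Cd37 (0.99), Cd22 (0.86) and Tnfrsf13b (0.72). The other 6 ranged from -0.09 for Cxcr5 to 0.40 for Btk. The median of the list was 0.79. Ltb was higher in only 3 of 6 areas. In other cells Ltb was near the background, at 247 to 337 CPM against a mean negative probe of 371 to 455 CPM. Ms4a1, Cd37 and H2-DMb2 were higher in 4 of 6 areas, and Cd79a, Cd22 and Tnfrsf13b in 5. Ms4a1 had 18, 0 and 0 counts in strong cells of the control areas. In strong cells the mean negative probe was at 175 to 451 CPM, lower than in the other cells of the same area in 6 of 6 areas.

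Of 13 homing and survival genes, 2 were called. Cxcr4, the receptor that holds plasma cells in their niche, rose by 1.37 and Ccl19, a chemokine of lymphoid tissue, by 0.73 (edgeR, adjusted p = 0.0198). Ccl19 was higher in only 3 of 6 areas, and without the 4 densest FOVs its log2 fold was -0.27. Cxcr4 was higher in 4 of 6 areas, with 15, 0 and 0 counts in strong cells of the control areas. In other cells it was near the background, at 373 to 499 CPM against a mean negative probe of 371 to 455 CPM. Without the 4 densest FOVs the log2 fold of Cxcr4 was 1.14 and it was not called (edgeR, adjusted p = 0.143). Ccr10, the homing receptor of IgA plasma cells, had a log2 fold of 0.44 and Pigr, the epithelial receptor that carries polymeric IgA, one of -0.35, and neither was called. Cxcl12, the ligand of Cxcr4, was at 0.49 and not called. The median of the list was 0.06.

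**Figure D5:**
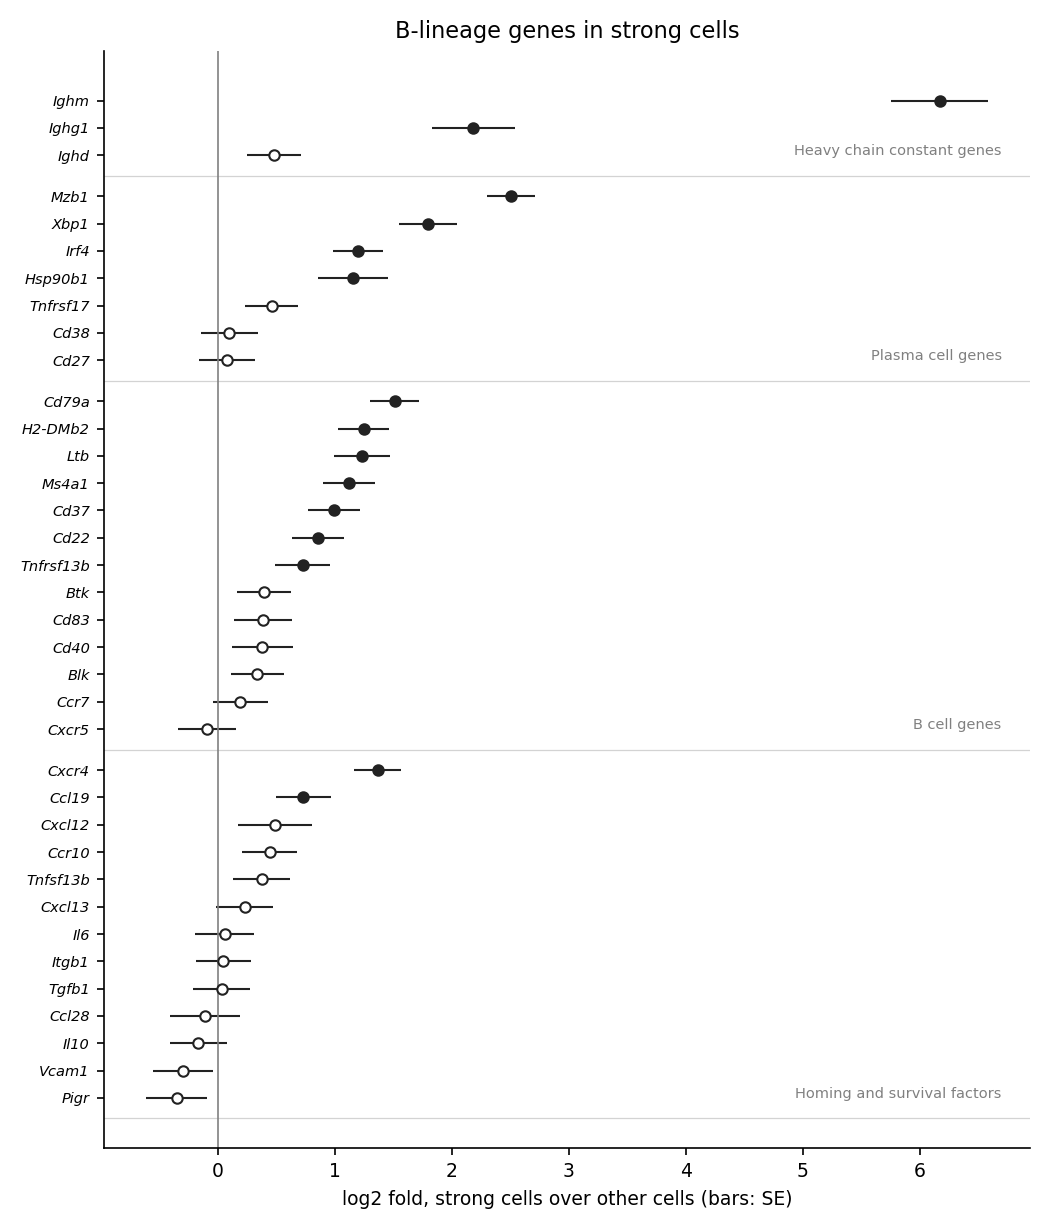
Log2 fold of strong cells over other cells with its SE (edgeR, 6 areas as blocks) for the targets of the heavy chain, plasma cell, B cell and homing lists. Filled points passed an adjusted p of 0.05 over all 995 targets and open points did not. Ighm lies at 6.17, ahead of Mzb1 at 2.50 and Ighg1 at 2.18, and 4 of 7 plasma cell, 7 of the 13 B cell targets shown and 2 of 13 homing targets are filled.

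Among all targets, called folds were ranked where all areas had the same direction and the level exceeded the highest negative probe. That level counted strong and other cells together. Targets without a count in the 3 strong cells of control area 2, such as Mzb1 and Xbp1, could not be ranked as higher. The highest folds after Ighm were then Cd74 (1.62), B2m (1.15), Fcrla, a B cell protein (1.11), and H2-Ab1 (1.08). After these came the ribosomal gene Fau (0.94), the matrix gene Dpt (0.86), Ptprcap (0.85), Hsp90aa1 (0.71) and Tubb5 (0.66). The lowest folds were those of genes of hepatocyte secretion and metabolism, Ttr at -2.06, Fgg at -1.93, Gc at -1.81, Selenop at -1.76, Apoa1 at -1.76, Vtn at -1.44, Apoc1 at -1.40, Azgp1 at -1.36, Cd36 at -1.33 and Hsd17b2 at -1.20. Apoa1 was at 0 to 2531 CPM in strong cells against 2747 to 4219.5 CPM in other cells, lower in all 6 areas. Genes of B cells thus rose with the plasma cell genes while genes of hepatocytes fell, and the part of either cell type in these differences was not tested.

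These counts depended on the surroundings of the strong cells. Against their 20 nearest other cells, 38 targets were called, 19 higher and 19 lower, among them Ighm (4.57), Ighg1 (2.17), Mzb1 (2.09), Xbp1 (1.53), Hsp90b1 (1.36), Irf4 (1.01), Cxcr4 (0.95) and, of the B cell list, only Cd79a (0.80). Without the 4 densest FOVs 7 were called, all higher, namely Ighm, Ighg1, Mzb1, Xbp1, Cd52, Cd74 and Slpi, none of them of the B cell list. Of that list, 1 of 14 had an unadjusted p under 0.05 there. Leaving out 1 area gave 44 to 163 called targets, with 64 when control area 1 was omitted, 44 when HIRA KO area 1 was and 50 when HIRA KO area 3 was. Of the list genes, Hsp90b1, Ccl19, Cd22, Cd37, Ltb, Ms4a1 and Tnfrsf13b each lost their call without at least 1 of these areas, and DESeq2 did not call Ighg1 (adjusted p = 0.223), Ms4a1, Tnfrsf13b or Ccl19. With scaling by library size only, the median over all targets moved to -0.26 and 65 higher and 205 lower targets were called.

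The protein stains and cell sizes did not choose the strong cells, but were read from the same cell outlines as the counts. In strong cells, the stain for CD45, the common leukocyte protein, was above that of other cells in 6 of 6 areas, with log2 differences of 3.11, 0.87 and 0.92 in control and 2.40, 1.44 and 2.82 in HIRA KO. The mean difference was 1.93 ± 0.98 (SD, n = 6), or 3.80-fold (exact sign-flip permutation test over 6 areas, two-sided, p = 0.031, the smallest it can give, adjusted over 6 measures p = 0.094). Against the 20 nearest cells it was 1.19, and without the densest FOVs 1.26, each in 6 of 6 areas. Strong cells were smaller in 6 of 6 areas, by a mean log2 difference in area of -0.71 ± 0.45 (exact permutation p = 0.031, adjusted p = 0.094). The difference in area was -0.34 against the 20 nearest cells and -0.37 without the densest FOVs, with smaller strong cells in 5 of 6 areas each. DAPI was higher in 5 areas (0.94 ± 0.78, and 0.47 and 0.40 in these 2 alternatives), PanCK, the keratin stain, lower in 5 (-0.41 ± 0.34), CD3, of T cells, higher in 5 (0.40 ± 0.44) and B2M higher in 4 (0.07 ± 0.17). No measure passed an adjusted p of 0.05, and with 6 areas none could fall below 0.031 before adjustment.

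The neighbours of strong cells, strong cells themselves not counted, were richer in the cluster led by Ighm and Slpi and poorer in hepatocyte-like cells. The former made up 21.5 ± 20.3% of the 20 nearest cells around strong cells and 1.85 ± 1.56% around other cells, higher in 6 of 6 areas. Ighm itself was at 10509 CPM in other cells within 100 pixels of a strong cell and at 737 CPM beyond 800 pixels. The 3 genes were chosen on their spread to neighbours and their clustering. The share of this cluster is therefore tied to that choice, and its p-value is no independent support. Hepatocyte-like cells made up 19.8 ± 8.82% against 32.3 ± 9.24% (SD, n = 6), lower in 6 of 6 areas. Clusters led by S100a9 and S100a8, by haemoglobin genes and by Ccl21a/b/d and Ifna were also lower in 6 of 6 areas (exact permutation p = 0.031 and adjusted p = 0.088 for all 5 classes). The cluster led by H2-Aa and H2-Ab1 was at 11.2% against 6.13%, higher in 5 of 6 areas (exact permutation, adjusted p = 0.146). No class passed an adjusted p of 0.05. Without the 4 densest FOVs the cluster led by Ighm and Slpi was at 3.47% against 0.81%, and hepatocyte-like cells differed by -7.65 percentage points, each in the same direction in 6 of 6 areas. The cluster led by Ccl21a/b/d and Ifna differed by -1.78 percentage points there, against -3.73 with them. The clusters led by S100a9 and S100a8 and by haemoglobin genes were then lower in 5 of 6 areas, with mean differences of -1.39 and -0.41.

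The other B-lineage targets were also compared between genotypes. Over all kept cells edgeR called 1 of 995 targets (0.101%), and 15 with the slide row of the areas as a block, and none of the 4 lists contained any of them. Of the heavy chain genes, Ighm was at 3388, 766 and 1007 CPM in control and 2931, 911 and 3553 CPM in HIRA KO, with overlap and a log2 fold of 0.65 (SE 0.54, edgeR, adjusted p = 0.832). Ighg1 was at 838, 863 and 719 CPM against 1522, 699 and 716 CPM, also with overlap (log2 fold 0.38, edgeR, adjusted p = 0.724). Ighd was at 420, 453 and 440 CPM against 487, 462 and 502 CPM, without overlap and close to the background (log2 fold 0.26, SE 0.11, edgeR, adjusted p = 0.605).

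In the heavy chain list 3 targets were higher and none lower in HIRA KO, in the plasma cell list 4 and 3, in the B cell list 8 and 6, and in the homing list 8 and 5, with medians of 0.38, 0.03, 0.09 and 0.04 on the log2 scale against -0.01 over all targets. None was called by edgeR or by DESeq2, and in edgeR 1, 1, 1 and 2 of them had an unadjusted p under 0.05. The lowest p in each direction belonged to Hsp90b1 (0.44) and Cd27 (-0.17) among plasma cell genes, to Ltb (0.37) and Tnfrsf13b (-0.21) among B cell genes, and to Cxcr4 (0.33) and Ccl19 (-0.22) among homing genes (edgeR, adjusted p from 0.571 to 0.798). Mzb1, the plasma cell gene with the highest fold in strong cells, was at 0.03. With scaling by library size only, the median over all targets moved to -0.12, and the homing list was split 3 higher to 10 lower.

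Within strong cells, no target passed the test between genotypes. edgeR called 0 of 499 targets (0%), 17 had an unadjusted p under 0.05, and DESeq2 called 0 with 4 under that value. The 3 strong cells of control area 2 and the 12 of control area 3 limit this comparison. Ighg1 was at 3499, 3300 and 718 CPM in control against 21160, 554 and 2036 CPM in HIRA KO (log2 fold 1.72, SE 0.83, edgeR, adjusted p = 0.997), and without HIRA KO area 1 its fold was -0.88. These levels rest on 68, 1 and 1 Ighg1 counts in control and 940, 7 and 74 in HIRA KO. Irf4 was at 3036, 0 and 2872 CPM against 1238, 949 and 1156 CPM (log2 fold -1.21, SE 0.51, edgeR, adjusted p = 0.997), from 59, 0 and 4 counts against 55, 12 and 42.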

How the data were processed

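The files deposited by the authors hold unnormalized counts for each target in each cell, a list of single transcripts and, per the file headers, the mean intensity of 5 stains with every cell's area and centre in pixels. Per the study's methods, the maker of the instrument did the imaging, and software versions of decoding and segmentation are not given in the sources used here. The single transcripts summed to the count table in every FOV and target (0 sums differed). Cells with at least 20 counts and an area up to 5 times the geometric mean were kept, as in the study's methods. The 3 genes, the lists and the threshold of strong cells were chosen with earlier results of these data known.

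Counts were summed per tissue area and tested with edgeR 4.0.16 (TMM, filterByExpr, quasi-likelihood, Benjamini-Hochberg at 0.05) in R 4.3.3. The 3 genes were left out of the fits on strong cells. In the fit between genotypes they stayed in the totals and in the adjustment, and their own test values were dropped. DESeq2 1.42.0 was an alternative. Stains and neighbour shares were tested by exact sign-flip permutation over 6 areas. On simulated counts with a log2 change of 1, edgeR recovered 86.6% of changed genes between genotypes (998 genes), 75.0% between strong and other cells (995 genes) and 26.7% within strong cells between genotypes (447 genes). The simulation gave every gene the same dispersion of 0.05. Its shares therefore do not hold for genes that varied more between areas, such as Ighm (SE 0.54 between genotypes). Cells were clustered without the 3 genes (Pearson residuals, 30 principal components, leidenalg 0.10.2, resolution 1.6) and classes took a name from markers, with at least 3 raised. Other tools were Python 3.11.15 and scikit-learn 1.9.0.

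Named targets are the 3 genes, every called member of the lists or else those with the lowest p in each direction, up to 10 targets per direction with the largest fold in strong cells that changed alike in 6 areas and exceeded the highest negative probe, and the 5 targets most like each gene over FOVs. Other list members and the single cells named were picked once values were known. Since the files name no build, positions of genes were read from GENCODE vM21 (GRCm38). Cell outlines were not used here, and 1 target of the B cell list is counted but not reported by name.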

Additional observations from a re-analysis of the deposited data

Results flagged for a closer look

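In 38 groups of 6 to 9 FOVs or areas, the highest or lowest value was compared with its neighbours by Dixon's criterion. Chance meets it in about 1 of 20 groups of independent values that were not selected. The 3 genes were chosen on their clustering by FOV, so that for their FOV values it is a description and not a test. The values that stood apart were mostly FOVs with many strong cells. Igkc was at 30497 CPM in FOV 4 of control area 1, at 18758 CPM in FOV 45 of HIRA KO area 3 and, at a far lower level, at 1390 CPM in FOV 18 of control area 2, which held 2 of the 3 strong cells of that area. Jchain was at 8585 CPM in FOV 4 and at 2821 CPM in FOV 45. Igha stood apart in other FOVs, at 3830 CPM in FOV 29 of HIRA KO area 2, which held 8 of the 13 cells with Igha and at most 1 Igkc count, and at 2240 CPM in FOV 46 of HIRA KO area 3.

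Among the differences in neighbour share between strong and other cells, 3 had an area far from the others. Cholangiocyte-like cells were higher by 16.1 percentage points in control area 3, the cluster led by Ccl21a/b/d and Ifna differed by -12.5 in control area 1, and hepatocyte-like cells by -31.7 in HIRA KO area 3.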

How the results depend on the processing

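No paired analysis was possible because FOV numbers, the only replicate numbers of the labels, are not shared between the genotypes. With the slide row as a block instead, which matches areas by their position on the slide and not by animal, 15 targets differed between genotypes, against 9 with DESeq2, 0 with library size only and 0 to 2 with 1 area left out. The count was 0 without control area 2 and without either of the HIRA KO areas 1 and 2. The Igha difference per cell area was 1.91, and with 1 area left out it was 1.17 to 1.48. In strong against other cells, the threshold of 5 counts called 196 targets (115 higher), 20 counts 74 (41 and 33), the 20 nearest cells 38 (19 and 19), library size only 270 (205 lower, median over all targets -0.26), no area block 97 higher, no densest FOVs (added after seeing the data) 7 and 0, and 1 area left out 44 to 163 (28 to 92 higher, 16 to 71 lower). Stains passed an adjusted p of 0.05 at 5 counts (CD45 2.01, PanCK -0.43, DAPI 1.02, area -0.57) and at 5 counts with 5% of the cell (2.01, -0.43, 1.01, -0.87), each at 0.047. CD3 was -0.018 without the densest FOVs. Neighbour shares that turned were cholangiocyte-like at 20 counts (-0.016; -1.62 to 2.53 with 1 area left out), T/NK-like (-0.48 to 0.50), myofibroblast-like (0.21 with 5% of the cell, 0.12 with 10 neighbours, 0.25 at resolution 0.8, 1.46 without the densest FOVs, -0.28 to 0.14 with 1 area left out) and the Saa1/2 cluster (0.033 without the densest FOVs, -0.83 to 0.065). In strong cells Ccl19 was -0.27 and Tnfrsf13b -0.087 without the densest FOVs, and between genotypes Cxcl13 was 0.15 with DESeq2 and Ighg1 -0.88 without HIRA KO area 1 (to 3.39 without control area 1). The cause was not tested. Depth limits what strong cells of control area 2 can show (416 gene counts, or 303 without the 3 genes).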
